A study of Homo sapiens with 3 samples.

Results

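Peaks of 2 chromatin-binding proteins were located around 8 genes of the NRF2 antioxidant pathway: NFE2L2, KEAP1, NQO1, GCLC, GCLM, SLC7A11, HMOX1 and GPX2. A peak belonged to a gene when its summit lay within 75 kb of the gene's span on genome build hg19. The rule used positions only and no peak strength. It took 72 of 61591 deposited peak rows, 26 of 21922 for p63 and 46 of 39669 for ZNF148. A pair of ZNF148 rows described summits of 1 interval at NFE2L2 and was counted as 1 peak, which left 26 p63 and 45 ZNF148 peaks. Nearness does not assign a peak to a gene. In the GRCh38.p14 gene table, protein-coding neighbours lay within the same distance of 6 of the 8 genes. Peaks were not placed against these neighbours, for want of an hg19 annotation, so a peak may lie at or within a neighbour.

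Chromatin immunoprecipitation followed by sequencing (ChIP-seq) was done in untreated FaDu cells, an established pharyngeal squamous carcinoma line. The groups were 1 library precipitated for ΔNp63α, 1 precipitated for ZNF148 and 1 input library without antibody, which has no peak list used here. All values come from this 1 cell line, and the labels name 3 independent ChIP assays behind the DNA. Each protein has 1 list, so replicate error is unknown, no test between conditions was possible and no p-value is given. Read depth is unknown. ΔNp63α is the form of p63 that lacks the N-terminal activation domain and is typical of basal squamous epithelium. ZNF148, also called ZBP-89, recognises GC-rich DNA through its zinc fingers.

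NRF2, the product of NFE2L2, is a transcription factor that switches on detoxifying and antioxidant genes. In unstressed cells KEAP1 holds NRF2 and hands it to a ubiquitin ligase for degradation. Oxidants and electrophiles modify KEAP1, NRF2 escapes, enters the nucleus and binds antioxidant response elements together with small MAF proteins. Its targets recycle quinones, supply glutathione and break down haem. The pathway is often activated by mutation in squamous carcinomas.

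A peak summit of either protein lay within 2 kb of the start of 4 of the 8 genes. The DNA just before the starts of NFE2L2, KEAP1, NQO1 and GPX2 is shown because they are these 4. That of GCLM is shown as an example of a gene without such a peak. GCLC had no such peak either, and its DNA is not shown. Sequences are the 250 bases before the outermost annotated start, on the gene's own (minus) strand, from RefSeq on GRCh38.p14: NFE2L2 at chr2:177264728-177264977, KEAP1 at chr19:10503357-10503606, NQO1 at chr16:69726561-69726810, GPX2 at chr14:64942746-64942995 and GCLM at chr1:93909431-93909680. Capitals mark matches, on either strand, to TGACNNNGC (the core of the antioxidant response element), GGGCGG (the GC box), CCCTCCCC (a C-rich string) and CATG followed after any 6 bases by CNNG (a spacing found in p53 family response elements).
NFE2L2: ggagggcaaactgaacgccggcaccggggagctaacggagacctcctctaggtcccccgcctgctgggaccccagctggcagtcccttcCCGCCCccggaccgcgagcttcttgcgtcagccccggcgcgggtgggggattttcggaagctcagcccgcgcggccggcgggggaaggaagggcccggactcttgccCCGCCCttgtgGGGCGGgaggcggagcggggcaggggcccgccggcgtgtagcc
KEAP1: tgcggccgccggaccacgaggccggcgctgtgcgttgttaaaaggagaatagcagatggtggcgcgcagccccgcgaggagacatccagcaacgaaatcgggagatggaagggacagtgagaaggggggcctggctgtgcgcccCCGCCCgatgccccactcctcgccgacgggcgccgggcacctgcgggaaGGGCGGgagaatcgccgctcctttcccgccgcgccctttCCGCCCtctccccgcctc
NQO1: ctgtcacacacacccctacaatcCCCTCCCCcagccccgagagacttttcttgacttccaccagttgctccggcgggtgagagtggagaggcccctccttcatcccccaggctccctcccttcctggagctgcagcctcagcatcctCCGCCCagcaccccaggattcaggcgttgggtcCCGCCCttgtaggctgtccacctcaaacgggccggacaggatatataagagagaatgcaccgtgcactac
GPX2: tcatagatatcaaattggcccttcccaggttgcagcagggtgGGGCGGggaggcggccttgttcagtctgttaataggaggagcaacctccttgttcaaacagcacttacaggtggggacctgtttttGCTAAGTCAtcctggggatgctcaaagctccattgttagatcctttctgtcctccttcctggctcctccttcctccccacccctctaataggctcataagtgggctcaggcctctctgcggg
GCLM: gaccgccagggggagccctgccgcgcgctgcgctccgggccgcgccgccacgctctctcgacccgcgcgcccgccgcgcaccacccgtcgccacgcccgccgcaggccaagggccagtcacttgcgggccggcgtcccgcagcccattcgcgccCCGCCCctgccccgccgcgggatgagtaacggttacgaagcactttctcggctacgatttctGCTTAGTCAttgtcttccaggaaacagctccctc

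RefSeq promoters were matched for 6 of the 8 genes, the 5 above and GCLC; SLC7A11 and HMOX1 were not matched. A GC box was found in 5 of the 6, against 42.6% of all 35116 promoters of the table over the same 250 bases. NFE2L2 and KEAP1 had 3 matches each, NQO1 had 2, and GPX2 and GCLM had 1 each. The antioxidant response element core was found in 2 of the 6, against 10.9% of all promoters. It read GCTAAGTCA in GPX2, 122 to 114 bases before the start, and GCTTAGTCA in GCLM, 34 to 26 bases before it, both on the strand opposite to the gene. The C-rich string was found in NQO1 alone, against 12.7% of all promoters, and the p53 family spacing in none of the 6, against 7.68%. GCLC, whose sequence is not shown, had no match to any of these motifs. No matches overlapped each other in these promoters. GC content was 74.8% in NFE2L2, 70.4% in KEAP1, 61.6% in NQO1, 60.8% in GCLC, 72.4% in GCLM and 54.0% in GPX2, with a median of 58.0% over all promoters. These matches describe letters in a short window and were not set against binding.

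Within 2 kb of a gene start, p63 had 2 of its 26 peaks, at 2 genes, and ZNF148 had 6 of its 45 peaks, at 3 genes. Starts were read from spans given to 1 kb, so these distances carry an error of about 0.5 kb. p63 was found at GPX2 and NFE2L2, and ZNF148 at NFE2L2, KEAP1 and NQO1. NFE2L2 was thus the only one of the 8 with peaks of both proteins there, and their summits were 1.8 kb apart or farther. By the rounded spans, 1 of 26 p63 peaks lay within a gene and 6 of 45 ZNF148 peaks did. That p63 peak and 5 of these ZNF148 peaks are the peaks at the starts, at 1.0 kb or less from a rounded span end, so inside and outside cannot always be told apart. Of the other p63 peaks, 16 were upstream and 9 downstream in the direction of transcription. Of the other ZNF148 peaks, 20 were upstream and 19 downstream. Shares of all peaks near gene starts were not computed, because no hg19 annotation was used.

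**Figure D1:**
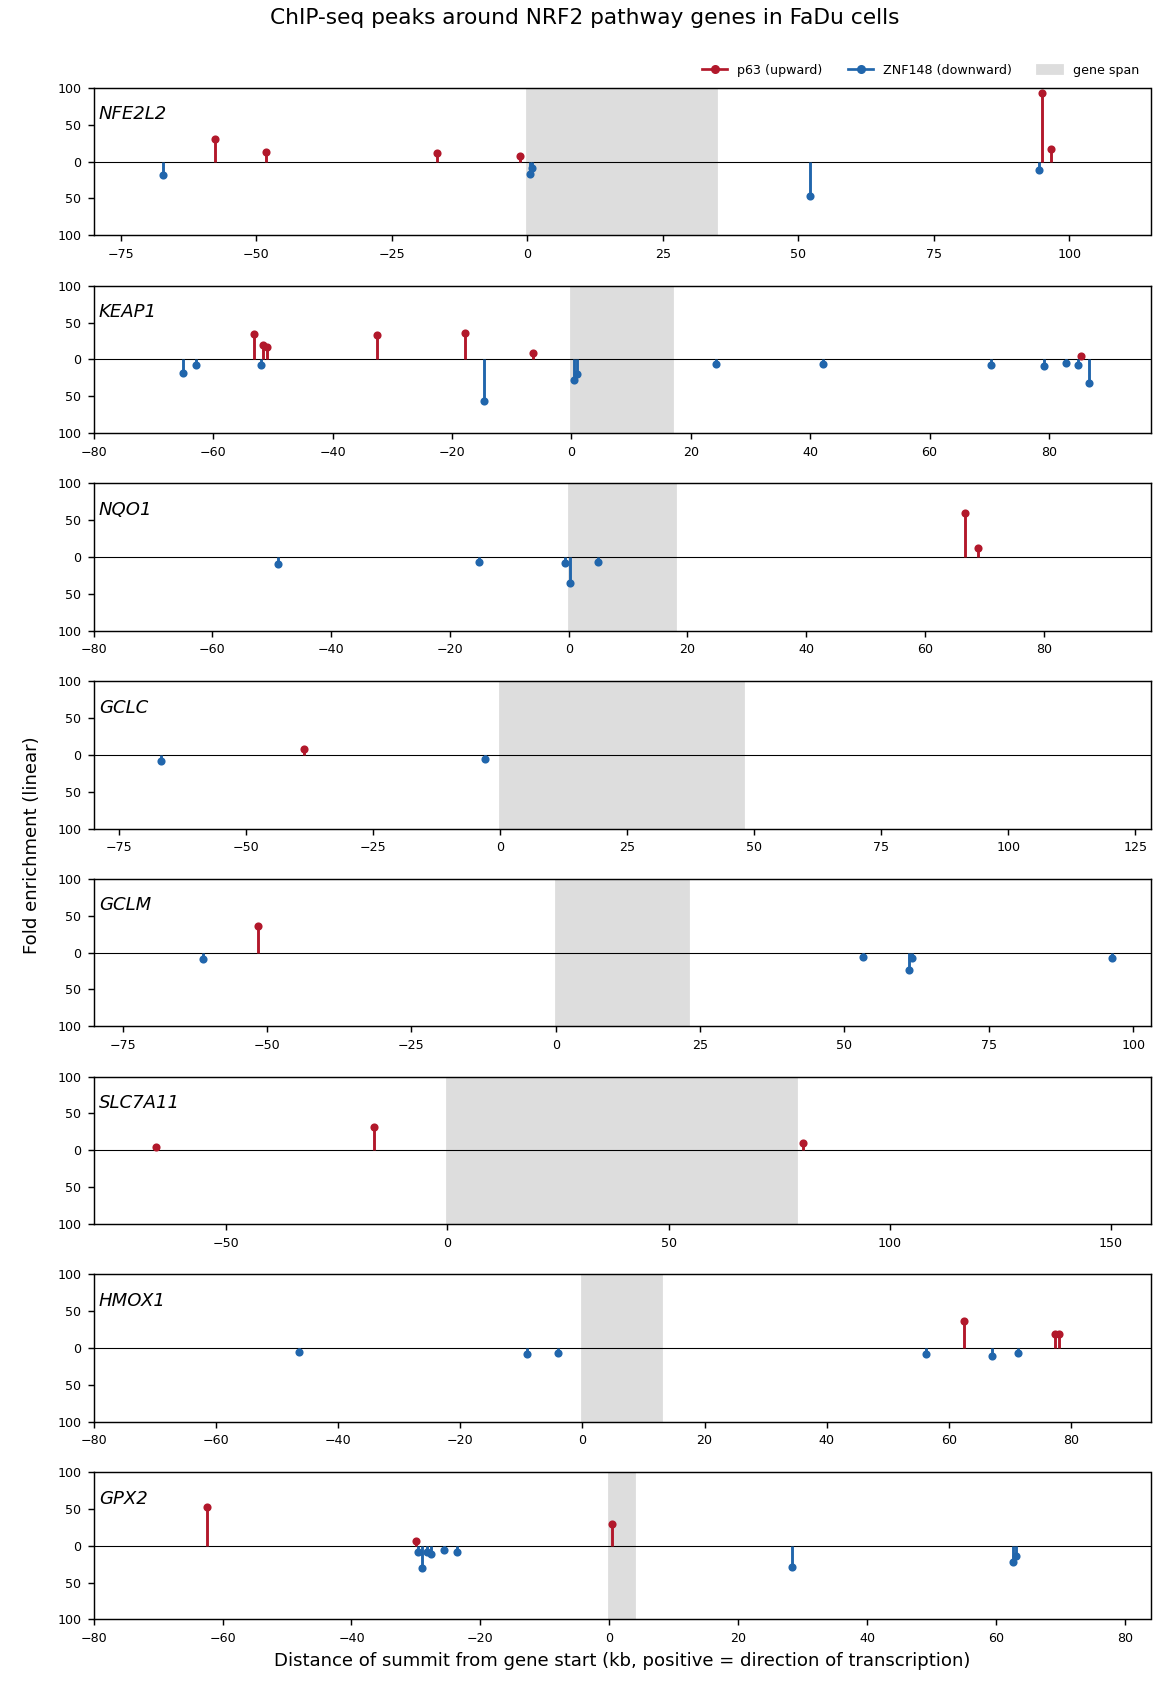
Each panel is 1 gene, with the distance of peak summits from the gene start in kb (positive in the direction of transcription) on the x axis and the deposited fold enrichment on the linear y axis; p63 points upward, ZNF148 downward, and the grey band is the gene span. The tallest mark is the p63 peak with a fold enrichment of 92.9 at NFE2L2, and the SLC7A11 panel has no ZNF148 mark.

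The 8 regions differed widely in the number of peaks. Spans with their 75 kb flanks covered 1.44 Mb and held 18.1 p63 peaks per Mb, against 7.30 over all chromosomes, and 31.3 ZNF148 peaks per Mb, against 12.9 over all chromosomes. The chromosome-wide densities include gene-poor DNA, and regions around other genes were not sampled. KEAP1 was densest for both proteins, at 41.9 p63 and 77.8 ZNF148 peaks per Mb. Its chromosome 19 had 8.7 and 29.5 per Mb. GCLC was sparsest for p63, at 5.1 per Mb, against 7.2 over chromosome 6. For p63, GCLM too was below its chromosome, at 5.8 against 8.2 per Mb. For ZNF148, GCLC (10.1 against 11.2 per Mb) and SLC7A11 (0 against 6.3) were below their chromosomes. HMOX1 was close to its chromosome for ZNF148, at 36.8 against 34.3 per Mb. The remaining densities exceeded those of their chromosomes. ZNF148 had more peaks at 6 of the 8 genes and p63 at 2, NFE2L2 and SLC7A11. Peaks nearest to the distance limit were a p63 peak at KEAP1 just inside it (68.3 kb from the span, fold 5.04) and one at GCLC just outside it (82.8 kb, fold 27.9), and for ZNF148 a peak at GCLM inside it (73.3 kb, fold 6.94) and one at GPX2 outside it (79.6 kb, fold 15.0).

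**Figure D2:**
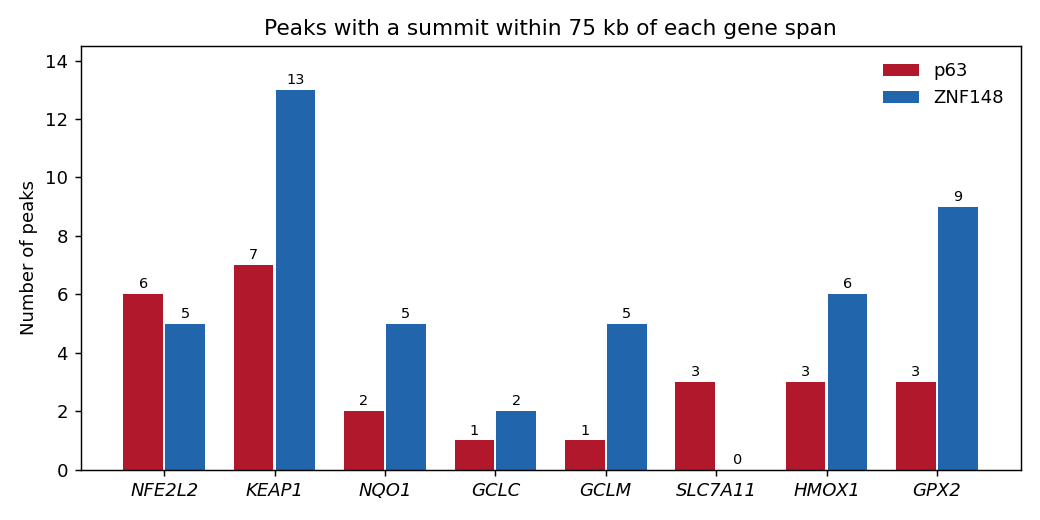
Bars give the number of peaks with a summit within 75 kb of each gene span (y axis) for p63 and ZNF148 at each of the 8 genes (x axis). KEAP1 has 7 p63 and 13 ZNF148 peaks, and SLC7A11 has 3 p63 peaks and 0 for ZNF148.

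The median fold enrichment at the 8 genes was 18.6 for p63 (95% order-statistic interval 12.0 to 32.6), against 13.2 in the whole p63 list of 21520 peaks. Fold enrichment is the authors' ratio of signal to local background at the summit. The ZNF148 peaks had a median of 8.34 (7.55 to 10.8), against 9.83 in the whole ZNF148 list of 37883 peaks. The p63 median was lower, and below that of the whole list, when only peaks within 25 kb (12.04, 7 peaks) or 50 kb (12.61, 13 peaks) of a gene were taken. Both whole-list medians lay inside the intervals given, which reflect counting error alone and take neighbouring peaks as independent. A fold of 10 or more was reached by 19 of 26 p63 peaks, or 73.1%, against 65.1% of the whole list. It was reached by 17 of 45 ZNF148 peaks, or 37.8%, against 49.6%. The strongest p63 fold exceeded the strongest ZNF148 fold at 6 of the 8 genes, counting SLC7A11, while KEAP1 and GCLC had the larger ZNF148 value. Folds of the 2 libraries also carry differences in depth and background between them.

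**Figure D3:**
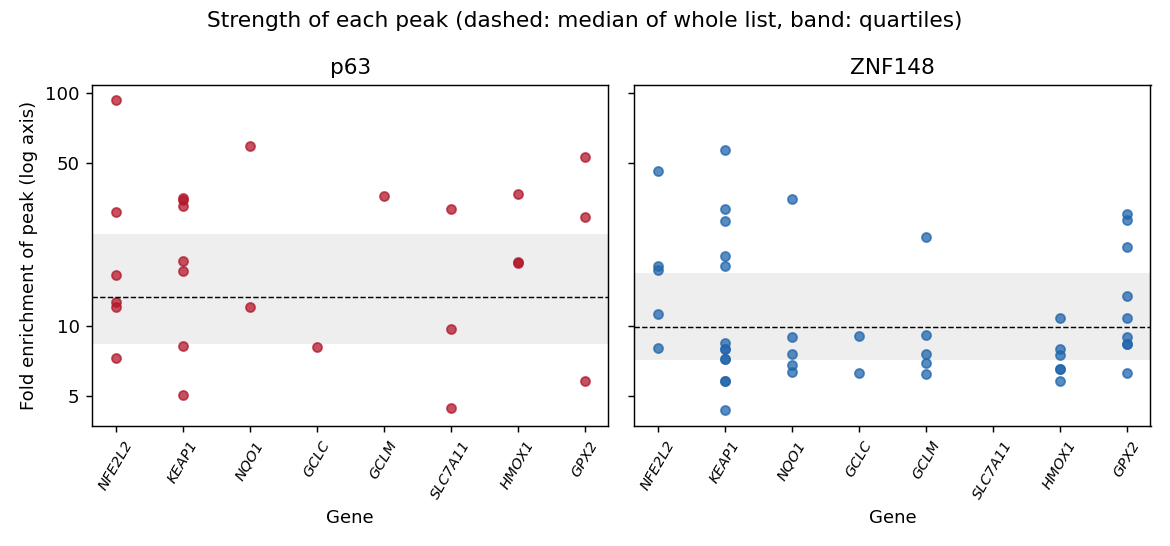
Each point is the fold enrichment of 1 peak (log axis) at the gene on the x axis, for p63 on the left and ZNF148 on the right; the dashed line is the median of the whole list (13.2 for p63, 9.83 for ZNF148) and the band its quartiles. p63 points reach 92.9 at NFE2L2, 59.2 at NQO1 and 52.9 at GPX2, and the highest ZNF148 point is 57.0 at KEAP1.

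NFE2L2, the gene of NRF2 itself (hg19 chromosome 2, 178.095 to 178.130 Mb), had 6 p63 and 5 ZNF148 peaks. Its strongest p63 peak, at 178034904 to 178035312, ranked 2 of 21520 by q value, with a fold of 92.9 and a −log10 q of 466. It lay 59.9 kb beyond the end of the gene, on the side of HNRNPA3, which encodes an RNA-binding protein and is the next protein-coding gene there. A weaker p63 peak (fold 16.5) lay 1.8 kb from it. On the other side of NFE2L2, p63 peaks stood 1.4, 16.7, 48.3 and 57.7 kb before the start, with folds of 7.27, 12.0, 12.6 and 30.9. The p63 peak nearest to the start was therefore also the weakest of the 6, at rank 14717. ZNF148 had a pair of peaks at the start, at 178129101 to 178129331 (fold 8.03) and 178129404 to 178129730 (fold 17.4), with summits 328 bp apart. Its strongest peak here, at 178077315 to 178078098, had a fold of 46.1 and rank 1366 of 37883, was 784 bp long and was the only interval with more than 1 summit among the 45. It lay 17.2 kb beyond the gene's end, again on the HNRNPA3 side, and whether it lay at HNRNPA3 itself was not determined. A ZNF148 peak with a fold of 11.3 stood beside the strong p63 peak, with a gap of 101 bp between the intervals and 410 bp between the summits. The fifth ZNF148 peak (fold 18.1) lay 67.2 kb before the start.

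KEAP1, the sensor that restrains NRF2 (hg19 chromosome 19, 10.597 to 10.614 Mb), had the most peaks of both proteins, 7 for p63 and 13 for ZNF148. All but 1 of the p63 peaks lay upstream, where S1PR5, ATG4D, KRI1, CDKN2D and AP1M2 follow. The 2 with the largest folds were at 10631631 to 10631931 (fold 35.3) and at 10666957 to 10667351 (fold 34.6, rank 2974), 17.8 and 53.2 kb before the start. Another of similar size, at 10646387 to 10646688, had a fold of 32.6. The peak at 10666957 closed a group of 3 within 2.5 kb, whose other members had folds of 17.1 and 19.0. The p63 peak nearest to the KEAP1 start was 6.4 kb before it and weak (fold 8.17), and the last p63 peak, beyond the gene's end, had a fold of 5.04. ZNF148 had its strongest peak of the whole set at 10628541 to 10628859, 14.7 kb before the KEAP1 start on the side of S1PR5, a receptor for sphingosine 1-phosphate. It had a fold of 57.0, a −log10 q of 145 and rank 686. Whether it lay at S1PR5 itself was not determined. At the KEAP1 start itself stood ZNF148 peaks with folds of 28.1 and 20.0, at 10613296 to 10613653 and 10612820 to 10613082, with summits 505 bp apart. Beyond the gene's end, towards the phosphodiesterase gene PDE4A, 7 further ZNF148 peaks had folds of 4.33 to 31.7. Whether any of these lay at PDE4A itself was not determined. The remaining 3 ZNF148 peaks were upstream, with folds of 7.21, 7.94 and 18.0.

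NQO1 encodes a quinone reductase and is a standard readout of NRF2 activity (hg19 chromosome 16, 69.743 to 69.761 Mb). It had 2 p63 and 5 ZNF148 peaks, and by the rounded spans the ZNF148 peaks lay within the gene or upstream. The p63 peaks lay beyond the gene's end, towards NFAT5, a transcription factor of the osmotic stress response. Whether they lay within NFAT5 was not determined. The stronger, at 69694147 to 69694438, had a fold of 59.2, a −log10 q of 265 and rank 268 of 21520, and stood 48.7 kb from the gene. The other, 2.2 kb from it, had a fold of 12.0. The ZNF148 peak at the start, at 69760406 to 69760867, had a fold of 35.0 and rank 1922 of 37883, and was 462 bp long. The other 4 ZNF148 peaks were weak, with folds of 6.32 to 8.95, and included 1 at 0.6 kb before the start (fold 7.55). The nearest ZNF148 summit to either p63 peak was 61.8 kb away.

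GCLC and GCLM encode the catalytic and the modifier subunit of glutamate-cysteine ligase, which catalyses the rate-limiting step of glutathione synthesis. Neither had a peak of either protein within 2 kb of its start. GCLC (hg19 chromosome 6, 53.362 to 53.410 Mb) had 3 peaks in all, as few as SLC7A11 and fewer than the other genes. Its p63 peak, at 53448658 to 53448808, was 38.7 kb before the start and had a fold of 8.10. Its ZNF148 peaks, at 53412806 to 53412955 and 53476682 to 53476920, were 2.9 and 66.8 kb before the start and had folds of 6.24 and 9.02. All 3 were below the median of their own list. GCLM (hg19 chromosome 1, 94.352 to 94.375 Mb) also had 1 p63 peak, at 94426375 to 94426734, which was far stronger, with a fold of 36.2 and rank 2585. It stood 51.6 kb before the start. ZNF148 had 5 peaks at GCLM. The strongest, at 94313615 to 94313926 (fold 24.1), lay 38.2 kb beyond the gene's end, on the side of DNTTIP2 and BCAR3. The peak nearest to the GCLM start was 53.3 kb from it (fold 6.21), and the folds of the other 3 were 6.94, 7.57 and 9.10.

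SLC7A11 encodes the light chain of the cystine and glutamate exchanger, which brings in the cystine used for glutathione. The region (hg19 chromosome 4, 139.085 to 139.164 Mb) had 3 p63 peaks and 0 ZNF148 peaks. The strongest p63 peak, at 139180531 to 139180781, was 16.7 kb before the start and had a fold of 31.8 and rank 4596. The second, at 139083508 to 139083708, lay 1.4 kb beyond the gene's end with a fold of 9.71, and the third, at 139229918 to 139230111, lay 66.0 kb before the start with a fold of 4.44. The nearest ZNF148 summit to all 3 peaks was the same, at 139706663, and was 476.7 to 623.1 kb away. It closed a stretch of 1.29 Mb without a ZNF148 summit, from 138417875 to 139706663. Over the genome 89 of 39439 spaces between neighbouring ZNF148 summits were at least this long, and the median space was 22.2 kb. Long spaces cover more DNA than their number shows, and the share of DNA in them was not computed. Chromosome 4 was also sparse in ZNF148, at 6.3 peaks per Mb against 12.9 over all chromosomes. The stretch of 1.29 Mb held 4 p63 peaks, the 3 here included. SLC7A11 was looked at for this after its count of 0 had been seen. A list holds only sites past the authors' threshold, so weaker ZNF148 binding there cannot be judged.

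HMOX1 encodes haem oxygenase 1, which breaks haem down to biliverdin, iron and carbon monoxide. Distal upstream enhancers with antioxidant response elements are known for the mouse gene. Human HMOX1 (hg19 chromosome 22, 35.777 to 35.790 Mb) was not searched for such enhancers, so peaks were not set against them. All 3 p63 peaks lay beyond the gene's end, where MCM5, a subunit of the replicative helicase, follows. The strongest was at 35839327 to 35839682, 49.5 kb from the gene, with a fold of 36.8 and rank 3288. The others, at 35854184 to 35854449 and 35854951 to 35855181, had folds of 18.5 and 18.7, and their summits were 746 bp apart. ZNF148 had 6 peaks here. Upstream of HMOX1 they stood 4.0, 9.1 and 46.4 kb before the start with folds of 6.49, 7.94 and 5.77. Downstream they had folds of 7.50, 10.8 and 6.49, so 5 of the 6 were below 10. No peak of either protein lay within 2 kb of the HMOX1 start.

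GPX2 encodes an epithelial glutathione peroxidase, which reduces hydroperoxides with glutathione. At GPX2 (hg19 chromosome 14, 65.406 to 65.410 Mb), a p63 peak lay at the gene start, whose sequence with its antioxidant response element core is given above. That p63 peak, at 65409454 to 65409834, had a fold of 29.2, a −log10 q of 133 and rank 2864 of 21520. Its summit lay 0.4 kb from the rounded start, on the gene side, which is less than the error of that position. The nearest ZNF148 summit was 24.1 kb away. A stronger p63 peak, at 65472204 to 65472540, lay 62.4 kb before the start, with a fold of 52.9, a −log10 q of 279 and rank 198. The third, at 65439880 to 65440045, was weak (fold 5.80). ZNF148 had 9 peaks at GPX2. Upstream, towards RAB15, FNTB and MAX, 6 of them stood within 6.1 kb, from 65433628 to 65439682, with folds of 6.24 to 30.05. The weak p63 peak stood at the edge of this group, 197 bp beyond its last interval. Beyond the end of GPX2 were 3 more ZNF148 peaks, with folds of 13.3, 21.7 and 28.4.

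The series title pairs p63 with ZNF148. At these 8 genes their peaks mostly lay apart, as they also did over the whole lists. An overlap of at least 1 bp with ZNF148 was seen for 1 of 26 p63 peaks, or 3.85% (95% exact binomial interval 0.0973 to 19.6%), against 21.2% of the whole p63 list. Of the ZNF148 peaks, 1 of 45 overlapped a p63 peak, or 2.22% (0.0562 to 11.8%), against 12.1% of the whole ZNF148 list. Both whole-list shares lay just above the upper bounds, but they lay inside the intervals when the distance limit was 25, 50 or 100 kb. At 100 kb the shares were 9.68% (2.04 to 25.8%) for p63 and 5.88% (1.23 to 16.2%) for ZNF148. Peaks at 1 gene are neighbours and not independent, so these values are a description and not a test. The overlapping pair was upstream of KEAP1, where the p63 peak at 10665571 to 10665879 (fold 19.0) and the ZNF148 peak at 10665817 to 10666023 (fold 7.21) had 63 bp in common and summits 168 bp apart. As this was the only pair, the counts without the KEAP1 region were by construction 0 of 19 p63 and 0 of 32 ZNF148 peaks. A ZNF148 summit lay within 1 kb of 5 of the 26 p63 peaks, or 19.2% (6.55 to 39.4%), against 26.4% of the whole list. In the other direction a p63 summit lay within 1 kb of 5 of the 45 ZNF148 peaks, or 11.1% (3.71 to 24.1%), against 15.7%. The 5 p63 peaks were at NFE2L2, KEAP1 and GPX2, and their summits were 168 to 893 bp from the nearest ZNF148 summit. The median distance from a p63 summit to the nearest ZNF148 summit was 8.23 kb, against 11.7 kb over the whole list.

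**Figure D4:**
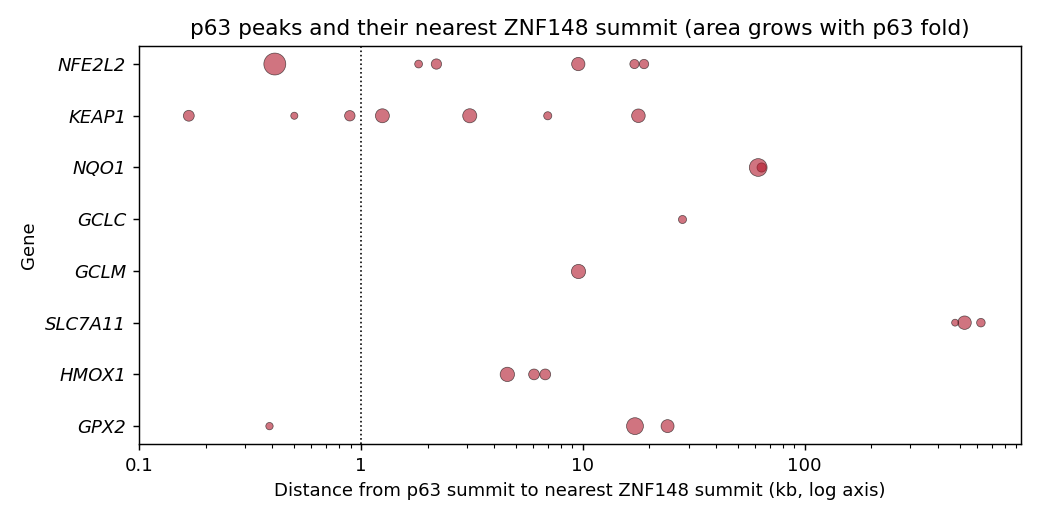
Each point is 1 of the 26 p63 peaks, placed by the distance from its summit to the nearest ZNF148 summit (kb, log axis) in the row of its gene, with an area that grows with its fold enrichment; the dotted line marks 1 kb. Only 5 points lie left of it, at NFE2L2, KEAP1 and GPX2, and the 3 points of SLC7A11 lie farthest right, at 476.7 to 623.1 kb.

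Several p63 peaks stood close to another p63 peak. A second p63 summit lay within 2.5 kb of 9 of the 26, or 34.6% (17.2 to 55.7%), against 8.94% of the whole p63 list. They formed a pair each at NFE2L2, NQO1 and HMOX1 and the group of 3 at KEAP1, so they come from 4 places. For ZNF148 the count was 21 of 45, or 46.7% (31.7 to 62.1%), against 31.9% of the whole ZNF148 list. Close neighbours are counted together, while the exact binomial intervals take peaks as independent, so these intervals are too narrow. The limit of 2.5 kb was chosen after the spacing had been seen. The 8 regions also held more peaks per Mb than all chromosomes, at 18.1 against 7.30 for p63 and 31.3 against 12.9 for ZNF148. The shares of close neighbours were not adjusted for this density.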

How the data were processed

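FaDu peak lists for p63 and ZNF148 were used as deposited. The submitters' processing notes list Bowtie2 2.3.4.3, MACS2 2.2.6, SAMtools 1.7, FastQC 0.11.9, MultiQC 1.12 and hg19. Roles, settings, the control library and duplicate handling are not given in the sources used here. Each deposited fold enrichment (a ratio to background) and each deposited −log10 q or p value is the authors' own. The deposited score, which the authors' file derives from −log10 q, was not used. Peaks went down to a −log10 q of 3.01 in the p63 list and 3.02 in the ZNF148 list.

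Rows of 1 interval were merged to their most significant summit, on chromosomes 1 to 22 and X. Ranks are by q value. Distances to a gene start run from the summit to the hg19 span end at that start. Other distances to a gene, and the limit of 75 kb, run to the nearest span end. Strands came from the RefSeq promoter table, or general knowledge for SLC7A11 and HMOX1. Overlaps were checked with bedtools 2.31.1, and the code was tested on simulated lists. Python 3.11.15, numpy 2.4.6, pandas 2.3.3 and scipy 1.17.1 were used. The genes and lists were chosen with earlier results of these data known. Named were each gene's strongest peaks and those nearest its start, overlapping pairs and all p63 peaks. Other ZNF148 peaks named beyond this rule were chosen after their values were seen. Further NRF2 targets were not analysed here, for want of an hg19 annotation. Alternatives were other distances, stricter thresholds, single summits and other overlap criteria.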

Additional observations from a re-analysis of the deposited data

How the results depend on the processing

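Under the alternatives 44 values were recomputed. Of these, 22 remained inside the interval of the value given above, or within 1.5 times of it for numbers of peaks, and 22 did not. A share of 0 always falls outside these intervals, whose lower bounds are 0.0973% for p63 and 0.0562% for ZNF148, however few peaks are left. Shares of 0 are among the 22 that did not remain, so this tally is no measure of stability for the shares. The recomputed values carry no sign, so a change of direction applies only to their order against the whole lists. Counts followed the distance allowed: p63 had 7 peaks within 25 kb and 13 within 50 kb, in place of 26, and ZNF148 had 16 and 28, in place of 45. With a −log10 q of at least 10, ZNF148 kept 24 peaks and their median fold was 17.72, in place of 8.34, because that limit removes weak peaks. The shares of overlapping peaks, 3.85% for p63 and 2.22% for ZNF148, each rest on the same pair at KEAP1. Both were 0 within 25 kb, within 50 kb, with a −log10 q of at least 10, with at least 50% overlap of both peaks, with lists of equal length, with summits no more than 25 or 100 bp apart, and without the KEAP1 region, an alternative chosen after seeing the data. Within 100 kb they were 9.68% and 5.88%, with 3 shared peaks in each list. The intervals within 25, 50 and 100 kb contain the whole-list shares of 21.2% and 12.1%. Whole-list shares were not recomputed with the q limit, the stricter overlap and summit criteria or lists of equal length. The shares of 0 under those settings therefore have no whole-list share beside them. The p63 median fold ranged from 12.04 to 18.98 and was below the 13.2 of the whole list within 25 kb (12.04) and within 50 kb (12.61). Read depth is unknown, so binding below the authors' threshold cannot be judged. No paired analysis was possible because each antibody has 1 library.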
